A study of Mus musculus with 2 samples.

Results

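The genes described here are 10 of the NFκB system: Rel, Rela, Relb and Nfkb2, which encode DNA-binding subunits, Nfkbia, Nfkbib and Nfkbie, which encode cytoplasmic IκB inhibitors, and Bcl3, Nfkbid and Nfkbiz, which encode nuclear IκB proteins. They were taken by name, with earlier results of these data known, as every probe set annotated to exactly 1 of these symbols, and gave 19 of 45037 probe sets and 10 of 18193 genes. Primary mouse T cells had been stimulated with anti-CD3 and anti-CD28 antibodies, and 1 Affymetrix array was run for cells without triptolide and 1 for cells with triptolide at 50 ng/ml. Both samples thus share the stimulation and a culture of 18 h. An unstimulated sample was not analysed here, and the sources name neither the strain, age and number of the mice nor the length of the triptolide exposure. Triptolide is a plant diterpenoid that binds the XPB subunit of the transcription factor TFIIH and blocks transcription by RNA polymerase II. The series asked which genes it affects in activated T cells.

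NFκB proteins are dimers of Rel family subunits that IκB proteins hold in the cytoplasm. Engagement of the T cell receptor and CD28 activates the IκB kinase IKK, which marks the cytoplasmic IκB proteins for destruction and lets the dimers enter the nucleus. c-Rel, the product of Rel, is the subunit best known for its part in T cell cytokine genes and T cell growth. Several genes of the system, Nfkbia above all, are themselves known NFκB targets and so form a feedback loop.

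The start regions of these genes can be read for the DNA motif that NFκB binds. RefSeq start windows of build GRCm38.p6, from 250 bases before to 50 bases after an annotated start, were at hand for 8 of the 10 genes (12 windows). They were searched on both strands for the κB consensus and for the shorter GGNNTTTCC, whose matches can overlap those of the consensus. A consensus match lay in a window of 6 of the 8 genes, against 5.14% of 27025 genes with such windows, and a GGNNTTTCC match in 4 of 8, against 6.62%. Neither motif matched in the windows of Rela and Nfkbib, which says only that these letters do not occur there. Stretches before the start are shown (150 bases, or for Bcl3 the 81 bases of these that lie outside all its annotated transcripts) for the pair of genes with the lowest triptolide ratios, Bcl3 and Rel, beside 2 genes that also have matches but lay within 2-fold on their brightest probe sets, Nfkbia and Nfkb2. Capitals mark matches on either strand.

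Bcl3, chr7:19822825-19822905, minus strand: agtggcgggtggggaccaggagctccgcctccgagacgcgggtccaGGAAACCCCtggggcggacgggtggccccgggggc

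Rel, chr11:23770970-23771119, minus strand: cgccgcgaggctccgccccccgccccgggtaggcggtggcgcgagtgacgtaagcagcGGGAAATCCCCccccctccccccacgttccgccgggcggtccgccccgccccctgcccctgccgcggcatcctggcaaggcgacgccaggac

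Nfkbia, chr12:55492648-55492797, minus strand: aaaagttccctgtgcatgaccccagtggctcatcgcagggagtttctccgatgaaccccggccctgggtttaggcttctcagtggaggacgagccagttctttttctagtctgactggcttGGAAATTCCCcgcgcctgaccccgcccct

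Nfkb2, the first of its 3 windows, chr19:46304587-46304736, plus strand: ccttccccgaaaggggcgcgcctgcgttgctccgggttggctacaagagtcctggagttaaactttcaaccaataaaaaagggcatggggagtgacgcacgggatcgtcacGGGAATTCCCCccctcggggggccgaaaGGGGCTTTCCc

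The Nfkb2 stretch held the most capitals, with matches ending 29 and 2 bases before the start. In Rel the consensus matched from 92 to 82 bases before the start, and in Nfkbia the match nearest the start ran from 29 to 20 bases before it. The capitals of Bcl3 mark a GGNNTTTCC match on the opposite strand, and its consensus match, GGGACTTCCC on the opposite strand, fell from 2 to 11 bases after the start, outside the stretch shown. Nfkbie had 1 consensus match, 106 to 97 bases before its start, and Nfkbid had 2, both in the second of its 3 windows. A match is a string of letters and not a measured binding site.

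All values below are MAS5 signal intensities, on a linear scale in arbitrary units. With 1 array per group there are no replicates, no error between cultures and no test, so no difference below has a replicate check and a size of at least 2-fold is used only as a fixed yardstick. Signals below a background floor of 118, taken from probe sets of chemosensory receptor genes, were raised to the floor before ratios were formed. Each gene is represented by its brightest probe set unless another is named. The median log2 ratio (triptolide over stimulated) of the 10968 genes detected on at least 1 array was -0.16, and single ratios are best read against that shift. The 25th and 75th percentiles of the ratios of all detected genes were -0.62 and 0.27.

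All 10 genes were above the floor on both arrays. Of them, 2 were at least 2-fold lower with triptolide, Bcl3 and Rel, and none was at least 2-fold higher. Over all detected genes 12.5% were lower by that size and 5.63% higher, and among the 5391 whose mean signal was 4 or more times the floor, as it was for all 10, the shares were 13% and 5.19%. At such shares about 1 of 10 genes would be lower by that size, so the count of 2 is near the background. The median log2 ratio of the 10 genes was -0.20, close to that of all genes, with 5 of them below and 5 above the median gene. Fewer cells of a type and less RNA per cell cannot be told apart in such bulk samples.

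**Figure D1:**
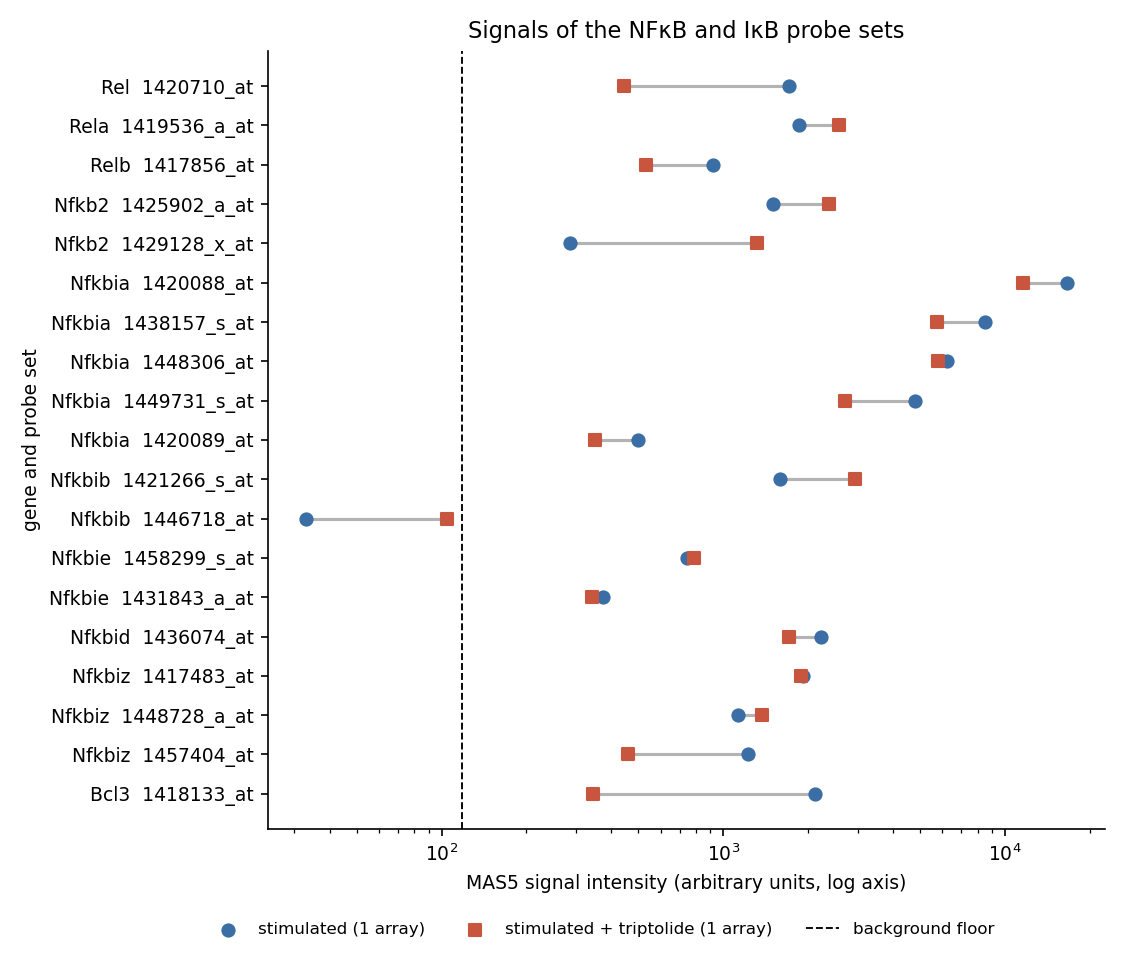
MAS5 signal (arbitrary units, log axis) of all 19 probe sets of the 10 genes on the stimulated array (circles) and on the array with triptolide (squares), with the background floor of 118 as a dashed line. Rel, Bcl3, 1 of the 3 Nfkbiz probe sets and 1 of the 2 Nfkb2 probe sets are set far apart between the arrays, and the only probe set below the floor on both arrays is the second one of Nfkbib.

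Among the subunits, Rel, which encodes c-Rel, had a signal of 1705 without and 445 with triptolide. That is 3.83-fold lower, a log2 ratio of -1.94, and only 1.46% of detected genes had a lower ratio. Rela, which encodes p65, the activating subunit of the most common NFκB dimer, had signals of 1854 and 2570, a log2 ratio of 0.47. The 2 genes thus went opposite ways, with log2 ratios 2.41 apart. For scale, the log2 ratios of the brightest 2 probe sets of one gene differed with an SD of 0.69 over 3733 genes, a spread that covers probe behaviour and transcript forms but not cultures or animals. Rel and Rela each have a single probe set here, so no second probe set could be set beside either value. That of Rela ends in _a_at, a suffix described below for Nfkb2, and that of Rel has no such suffix.

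Relb and Nfkb2 belong to the alternative NFκB pathway, in which the p100 product of Nfkb2 holds RelB back until it is processed to p52. Relb had signals of 918 and 530, a log2 ratio of -0.79 on its single probe set. The brighter probe set of Nfkb2 went from 1506 to 2366, a log2 ratio of 0.65. Its dimmer one went from 286 to 1316, which is 4.61-fold higher. On their brightest probe sets, 99.5% of detected genes had a lower ratio than that. Both Nfkb2 probe sets were thus higher with triptolide, but by unlike amounts: their log2 ratios lay 1.55 apart, and only 4.02% of the 3733 genes had a pair at least as far apart. The dimmer probe set carries the suffix _x_at, by which the maker marks probes that may also bind other transcripts. The brighter one carries _a_at, for probes shared by several transcripts of one gene. How far cross-binding entered the larger value was not tested. Relb and Nfkb2 stood 1.44 apart on their brightest probe sets.

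**Figure D2:**
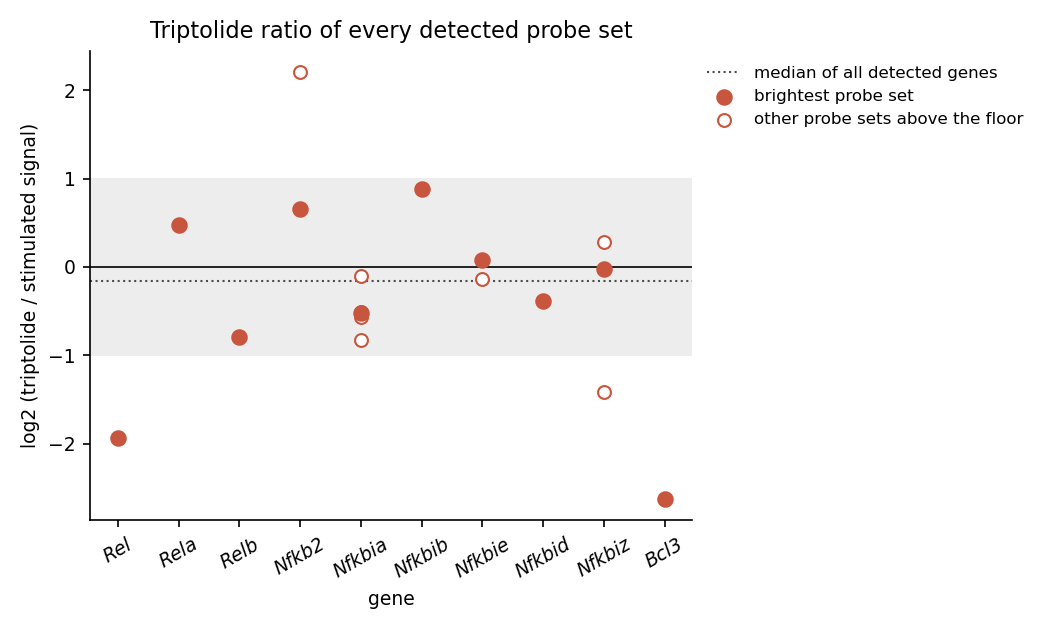
Log2 ratio of triptolide over stimulated signal for the 18 probe sets above the floor, by gene, with the brightest probe set of each gene filled, the others open, the range within 2-fold shaded and the median of all detected genes (-0.16) dotted. Bcl3 and Rel lie below the shaded range on their only probe sets, while single open points of Nfkb2 (2.20) and Nfkbiz (-1.42) lie outside it on opposite sides.

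The cytoplasmic inhibitors stayed within 2-fold on their brightest probe sets. Nfkbia encodes IκBα, the inhibitor that is degraded and resynthesised most rapidly after activation. It was covered by 5 probe sets, more than any other gene of the group. The brightest went from 16575 to 11571, a log2 ratio of -0.52. The other 4 went from 8489 to 5737, from 6205 to 5770, from 4806 to 2715 and from 500 to 350. All 5 were lower with triptolide, with log2 ratios between -0.82 and -0.10. The smallest of these lies above the median ratio of all genes, so relative to the median gene 4 of the 5 were lower.

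Nfkbib, which encodes the related inhibitor IκBβ, stood at the other end of the group. Its bright probe set, which ends in _s_at, went from 1594 to 2940, a log2 ratio of 0.88, and 92.8% of detected genes had a lower ratio. Its second probe set was below the floor on both arrays (33.1 and 104) and gives no ratio. Nfkbia and Nfkbib were 1.40 apart on the log2 scale. Nfkbie, which encodes IκBε, had signals of 743 and 784 on one probe set and of 375 and 342 on the other. Its log2 ratios of 0.08 and -0.13 differ in sign and by less than the spread between probe sets of one gene, so no direction is given.

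The nuclear IκB proteins bind Rel dimers on DNA and can activate or repress their target genes. Bcl3, which encodes a coactivator of p50 and p52 dimers, had a signal of 2119 without and 344 with triptolide. It was 6.15-fold lower, a log2 ratio of -2.62, the lowest of the group, and 0.337% of detected genes had a lower ratio. The value rests on 1 probe set. Nfkbid, which encodes IκBNS, known for its part in Il2 expression and in regulatory T cell development, went from 2226 to 1709, a log2 ratio of -0.38 on its single probe set. Bcl3 and Nfkbid stood 2.24 apart.

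The probe sets of Nfkbiz, which encodes IκBζ, a cofactor in the Th17 programme, disagreed. The brightest had nearly equal signals of 1918 and 1884, a log2 ratio of -0.03. The second went from 1126 to 1369, a log2 ratio of 0.28. The third went from 1227 to 459, which is 2.67-fold lower, a log2 ratio of -1.42. Its 3 probe sets thus span 1.70 on the log2 scale and include both signs, and no direction is given for the gene. Counted by probe set in place of gene, 3 of the 18 detected probe sets of the group were lower by 2-fold or more and 1 was higher. Among all 19209 detected probe sets with 1 symbol those shares were 12.8% and 5.69%.

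In order from the lowest ratio, the genes were Bcl3, Rel, Relb, Nfkbia, Nfkbid, Nfkbiz, Nfkbie, Rela, Nfkb2 and Nfkbib. Of the 9 steps between neighbours, the step of 1.15 from Rel to Relb was the only one wider than the SD of 0.69 between probe sets of one gene. The step from Bcl3 to Rel was 0.68, just under it, and the others ran from 0.10 to 0.39. On brightest probe sets, Bcl3 and Rel were thus set apart from the other 8 genes by a step of 1.66 times that SD. The SD holds no error between cultures or animals, and a dimmer Nfkbiz probe set, at -1.42, falls inside the step. With 1 array per group no part of the order is resolved.

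**Figure D3:**
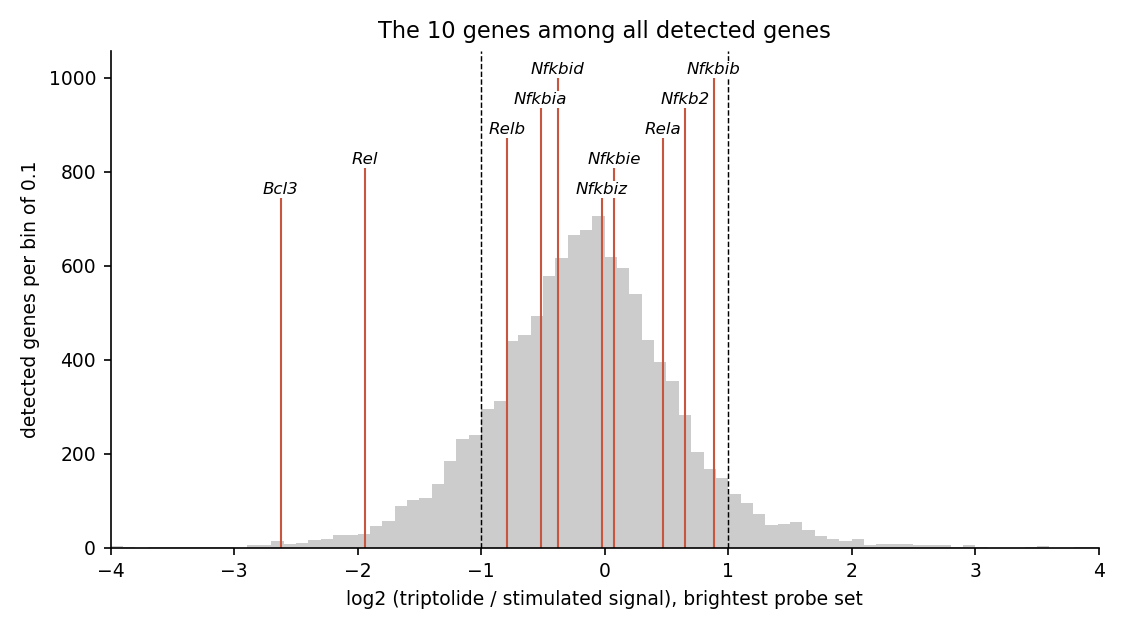
Number of detected genes (of 10968) per bin of 0.1 in log2 ratio of triptolide over stimulated signal, with the 10 genes marked by lines on their brightest probe sets and 2-fold marked by dashed lines. Bcl3 (-2.62) and Rel (-1.94) lie in the lower tail and the other 8 genes within 2-fold.

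The scaling of the arrays sets where 0 lies. Under centring on the array medians, quantile normalisation and scaling on housekeeping genes, Bcl3 ranged from -2.75 to -2.43 and Rel from -2.07 to -1.74, both at least 2-fold lower each time. Relb, Nfkbia and Nfkbid stayed below 0 and Rela, Nfkb2 and Nfkbib above 0 under these 3 scalings, whereas Nfkbie and Nfkbiz changed sign. Nfkbib reached 2-fold after median centring (1.01) and after quantile normalisation (1.07). Over all genes, the share of 2-fold differences that were towards lower signal was 68.9% on the deposited scale, 58.2% after median centring, 50.9% after quantile normalisation and 77.7% after housekeeping scaling.

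**Figure D4:**
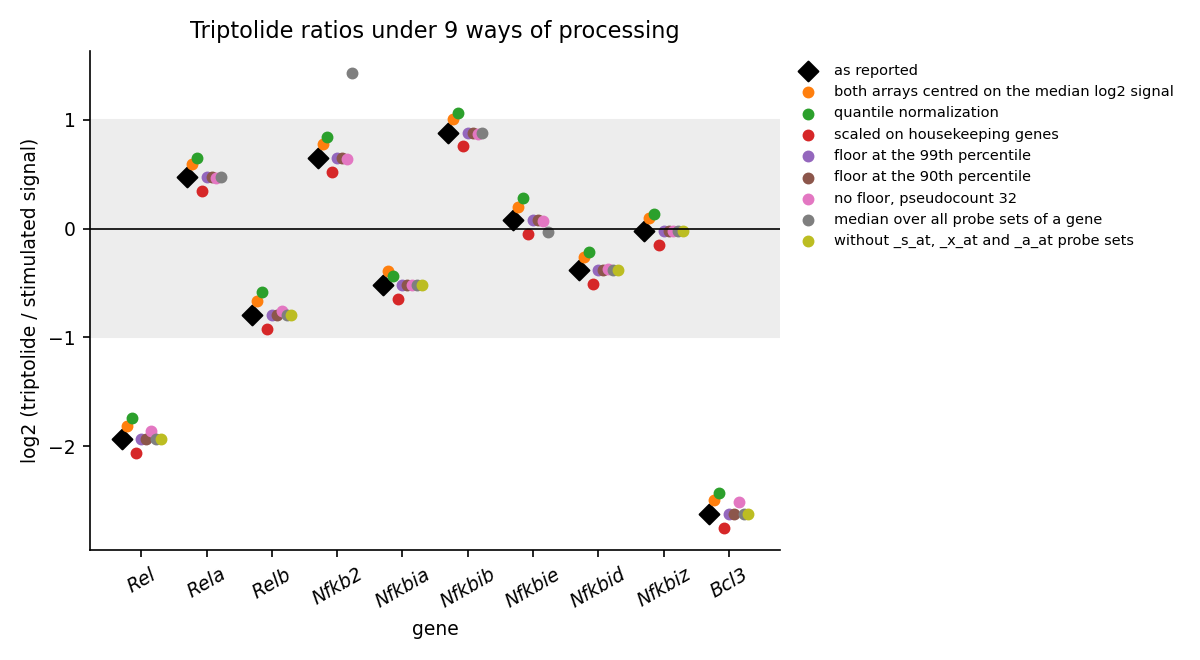
Log2 ratio of triptolide over stimulated signal of each gene as reported (black diamonds) and under 8 other ways of processing (coloured points), with the range within 2-fold shaded. Bcl3 and Rel stay below the shaded range in each, though only the scalings and the setting without a floor could move their values. Nfkb2 leaves the range upwards only where the median over its 2 probe sets (1.43) is taken.

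The rest of the pathway was described by 7 lists of genes outside the group, 91 genes in all, of which 83 were detected. Of these, 17 (20.5%) were lower by 2-fold or more and 5 (6.02%) higher, against 12.5% and 5.63% of all detected genes, with a median log2 ratio of 0.03. The target genes held 9 of the 17. Another scaling moved the sign of this median and of those of the T cell receptor, IκB ubiquitination and nuclear modifier lists below, while the IKK median stayed above 0 and the other 3 below it under the 3 scalings.

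Kinases of the IKK complex and their activators lay mostly within 2-fold, with a median of 0.19. Of 10 detected, 1 (10%) was lower by 2-fold or more and none higher, against 12.5% and 5.63% of all detected genes. Ikbkb, which encodes the catalytic subunit IKKβ, had signals of 2347 and 3139 (log2 ratio 0.42), and Map3k7, which encodes TAK1, the kinase that activates IKK, had 1084 and 1476 (0.45). Their further probe sets were spread from -0.28 to 1.60 and from -0.37 to 1.42. Ikbke had a log2 ratio of -0.52. Azi2, an adaptor of TBK1, had signals of 1597 and 677 on its brightest probe set, 2.36-fold lower. Its other probe set had a log2 ratio of 0.98, and the median over its probe sets, -0.13, ended this call. Without probe sets ending in _s_at, _x_at or _a_at, Azi2 was at 0.97 and Map3k7 at 1.42, which gave 0 genes lower and 1 higher. Over all detected genes the shares were then 12.3% and 5.83%.

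The route from the T cell receptor to IKK had 3 of 9 detected genes (33.3%, against 12.5% of all detected genes) lower by 2-fold or more and 0 higher, with a median of 0.09. Cd28, the costimulatory receptor engaged by the antibody, was 2.92-fold lower (4620 to 1580), and its second probe set had a log2 ratio of -1.76. Prkcq, which encodes the kinase PKCθ that connects the receptor to IKK, was 2.77-fold lower (2467 to 892). The third, named after its value was seen, was Malt1, which encodes a protease and scaffold protein, with signals of 2055 and 1008, a log2 ratio of -1.03, and 3 probe sets between -2.05 and -1.03. Malt1 was at -0.90 after median centring and -0.85 after quantile normalisation, which left 2 genes of the route lower. Prkcq had no probe set left without those ending in _s_at, _x_at or _a_at, which also left 2. Bcl10, an adaptor gene of this route, had a log2 ratio of 0.54 with all 4 probe sets above 0. Ube2n, the ubiquitin-conjugating enzyme that makes K63 chains, had 0.43.

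Of 7 detected TRAF, RIPK and cIAP adaptor genes, 1 (14.3%) was lower by 2-fold or more and 0 higher (median -0.27). Over all detected genes the shares were 12.5% and 5.63%. Traf6, a ubiquitin ligase upstream of TAK1, had signals of 1381 and 452 on its brightest probe set, 3.06-fold lower, while its 4 probe sets ran from -2.02 to 0.86 with a median of -0.74, which ended this call. Birc3 and Birc2, which encode the ubiquitin ligases cIAP2 and cIAP1, had log2 ratios of -0.90 and 0.51. Birc3 passed 2-fold when scaled on housekeeping genes (-1.02) and without probe sets ending in _s_at, _x_at or _a_at (-1.03). Each of these settings gave 2 genes lower. Tradd had 0.30.

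Among genes that edit ubiquitin on the pathway, 2 of 12 (16.7%) were lower by 2-fold or more and 0 higher (median -0.39). Over all detected genes the shares were 12.5% and 5.63%. Tnfaip3, which encodes the inhibitor A20 and is a known NFκB target, was 2.66-fold lower (4114 to 1545), with the second probe set at -1.78. Tnip1, a partner of A20, was 2.16-fold lower (2526 to 1171). Tnip1 was at -0.98 after median centring and -0.93 after quantile normalisation, and Tnfaip3 was then the 1 gene lower. Zc3h12a, which encodes the RNase Regnase-1, had signals of 219 and 397 (0.86), with the second probe set at 0.24. Quantile normalisation put Zc3h12a at 1.09 and so 1 gene higher. Rbck1, a subunit of the linear ubiquitin ligase, had a log2 ratio of 0.51.

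The machinery that ubiquitinates phosphorylated IκB had 1 of 10 genes (10%) higher by 2-fold or more and 0 lower (median 0.07). Over all detected genes 5.63% were higher and 12.5% lower. The higher gene was Cdc34, a ubiquitin-conjugating enzyme of cullin ligases, with signals of 1716 and 3726 (2.17-fold). Nedd8, the ubiquitin-like protein that activates cullins, had 5303 and 10590 (log2 ratio just under 1). Median centring and quantile normalisation put Nedd8 at 1.12 and 1.09 and so 2 genes higher, while scaling on housekeeping genes put Cdc34 at 0.99 and left 0. Cul1 and Fbxw11, the cullin and a substrate receptor of the ligase, had log2 ratios of -0.30 and -0.27. Of 11 nuclear modifiers of Rel proteins, 1 (9.09%) was lower and 1 (9.09%) higher by 2-fold or more (median -0.05), against the same 2 shares of all genes. Pdlim2, which encodes a nuclear ubiquitin ligase for p65, was 2.73-fold lower (623 to 228), and Akirin2 had -0.94. Scaling on housekeeping genes put Akirin2 at -1.07 and so 2 genes lower. Hdac1, a histone deacetylase, was exactly at the limit with 3582 and 7163 and under it, at 0.87, when scaled on housekeeping genes. Sirt1, a deacetylase of p65, had 0.81, and 1.01 after quantile normalisation, which put 2 genes higher.

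Reported NFκB target genes went both ways. Of 24 detected, 9 (37.5%) were lower by 2-fold or more and 3 (12.5%) higher, against 12.5% and 5.63% of all detected genes, with a median of -0.34. Quantile normalisation gave 6 lower and 5 higher, and the shares of all detected genes were then 8.42% and 8.12%. Without probe sets ending in _s_at, _x_at or _a_at the median turned to 0.07 with 6 lower, against 12.3% of all detected genes. That setting left out Ier3, Cd40, Myc and Irf1, and the first 3 of these were lower by 2-fold or more as reported. Among genes above the floor on both arrays the early response gene Ier3 was lowest at 5.82-fold (2901 to 498), then the chemokine Cxcl10 at 3.20-fold (581 to 182). Il2, the gene of the T cell growth factor interleukin 2, named after its value was seen, had signals of 665 and 113, the latter below the floor, and was thus at least 5.61-fold lower. The adhesion molecule gene Icam1 was 5.72-fold higher (1081 to 6179) and Tnf 2.86-fold higher (398 to 1140). The third higher gene, named after its value was seen, was the chemokine Ccl5 with signals of 521 and 1434. Icam1 and Tnf thus had ratios at the other end from Ier3 on the same 2 arrays, on 1 probe set each.

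**Figure D5:**
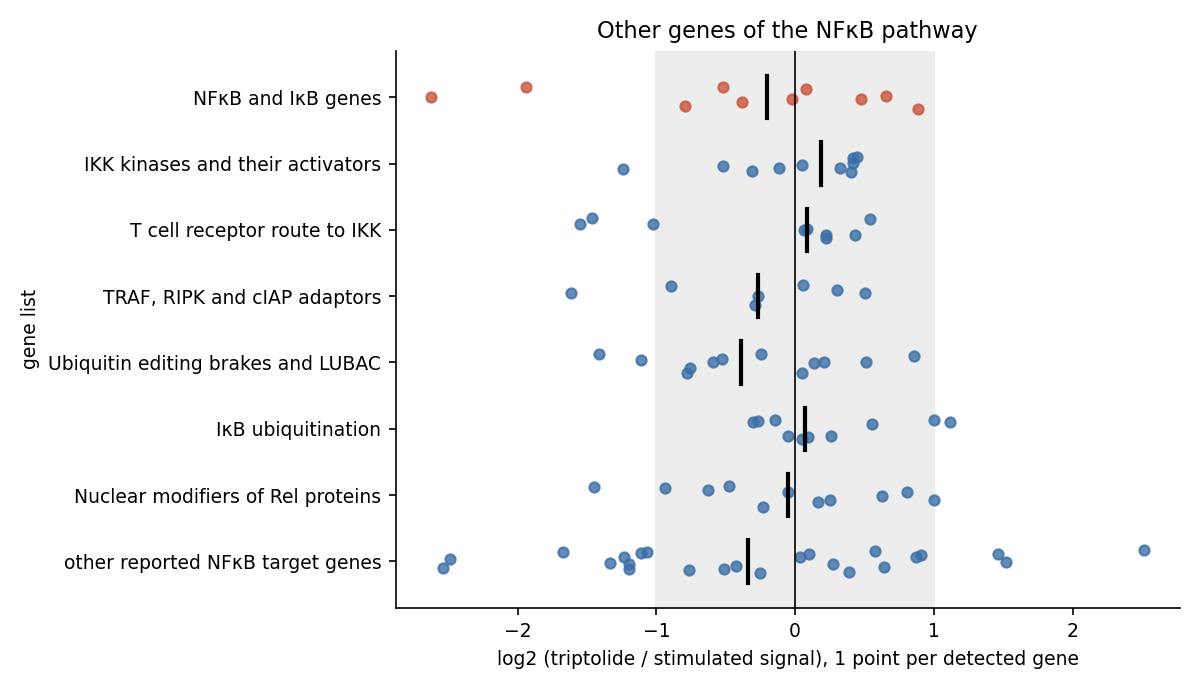
Log2 ratio of triptolide over stimulated signal for each detected gene (points, spread vertically at random for legibility) of the 10 NFκB and IκB genes and of 7 lists of other pathway genes, with list medians as bars and the range within 2-fold shaded. As deposited, the list medians lie between -0.39 and 0.19, and the target genes have the widest range, from -2.54 to 2.52.

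The labelled cell type was compared with its markers. Of 11 T cell markers with a probe set, all were above the floor on both arrays and 3 (27.3%, against 12.5% of all detected genes) were lower by 2-fold or more with triptolide, with summed signals of 66385 and 47014. Cd3e had 2881 and 3962, Cd4 972 and 400, and Cd8a 7327 and 2417. The 5 detected probe sets of Cd8a had log2 ratios from -1.61 to 0.17. B cells and myeloid cells also express NFκB and IκB genes. Of 7 B cell markers 6 were detected, with summed signals of 5123 and 3233, mostly from Ighm (3482 and 1805). The 7 detected probe sets of Ighm had log2 ratios from -2.60 to 0.53. Cd79a was at 349 and 674 and Ms4a1 at 227 and 139. Of 8 myeloid markers 6 were detected, with sums of 1168 and 1391, Lyz2 at 72.2 and 260, Mpeg1 at 342 and 117, and Csf1r at 272 and 288. Natural killer markers (3 of 4 detected) had sums of 4758 and 3483, mostly from Nkg7 (4148 and 2354), a gene that cytotoxic T cells express as well, while Klrd1 had 489 and 966, the median log2 ratio was 0.19 and Ncr1 was below the floor on both arrays. Of 5 dendritic cell markers 1 was detected, and Itgax was below the floor on both arrays. The part that these other cells had in the ratios of the 10 genes was not tested.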

How the data were processed

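The authors deposited 1 MAS5 signal intensity per probe set and array, named as MAS5 in the submitters' processing notes. Its version and scaling are not given in the sources. MAS5 subtracts local background, combines probe pairs robustly and scales each array by 1 factor. The 2% trimmed mean of the first 100 probe sets was 2000.0 on both arrays and that of all 45037 was 383 and 340, so scaling on those 100 is likely, and the zero of all ratios then rests on them. Control probe sets, detection calls and a planned comparison of protein sequences were not used here.

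Symbols came from the platform annotation, updated through RefSeq gene numbers for 34741 of 34945 probe sets with 1 symbol (932 had several, 9160 none). The floor is the higher 95th percentile of 87 chemosensory receptor probe sets on the 2 arrays (107 and 118). Signals were floored, log2 ratios taken, and the brightest probe set by mean log2 signal stood for its gene. Median signals were 95.5 (stimulated) and 87.6 (triptolide), with 44.9% and 42.2% of probe sets above the floor. The number of arrays limits the precision. Calculations used Python 3.11.15, numpy 2.4.6 and pandas 2.3.3 and were tested on simulated data. The 10 genes and the lists were chosen with earlier results of these data known. Named from each list were its 2 highest and 2 lowest genes above the floor on both arrays, and others are marked as named later. Alternatives were 3 scalings, 3 floor settings and 2 choices of probe sets.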

Additional observations from a re-analysis of the deposited data

How the results depend on the processing

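Bcl3 and Rel were at least 2-fold lower under all 8 alternatives, and the count of lower genes among the 10 stayed at 2. Most of these could not change the call for Bcl3 and Rel, which have 1 unsuffixed probe set each, well above the floor. Only the 3 scalings and the setting with a constant added in place of the floor moved their values. The count of genes at least 2-fold higher, 0 as reported, was 1 after centring both arrays on their medians and 1 after quantile normalisation (Nfkbib in both), and 1 where each gene took the median of its probe sets (Nfkb2 at 1.43). The median of the detected genes of the group ranged from -0.65 to -0.04. Its lowest value came without probe sets ending in _s_at, _x_at or _a_at, which left 6 of the 10 genes. The genes left out were Nfkbie, Rela, Nfkb2 and Nfkbib, which are the 4 with ratios above 0 as reported. Every ratio above 0 among the brightest probe sets thus rests on a probe set with such a suffix, and this lowest median follows from their loss. For the other pathway genes, the count at least 2-fold lower ranged from 12 to 19 around 17. The count at least 2-fold higher, 5 as reported, was 10 after quantile normalisation and 3 when scaled on housekeeping genes. The median ranged from -0.09 to 0.20, changing sign with the scaling. The shares of all detected genes moved as well. As reported, after quantile normalisation and after housekeeping scaling, 12.5%, 8.42% and 15.6% were lower and 5.63%, 8.12% and 4.48% higher. The setting without suffixed probe sets also left fewer of the pathway genes. The cause of these changes was not tested beyond what each setting does by construction. No replicate could be left out and no paired analysis was possible because each group has 1 array. Signals near the floor limit only the second Nfkbib probe set, since all other probe sets of the 10 genes were above it on both arrays.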

Other observations

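The start windows were also set against the ratios of genes outside the group, as a description with no test. Of 547 detected genes with a κB consensus match in a window, 81 (14.8%) were lower by 2-fold or more and 30 (5.48%) higher, with a median log2 ratio of -0.15. Of 8352 detected genes with a window but no match, 12.0% were lower by 2-fold or more and 5.81% higher, also with a median of -0.15. With GGNNTTTCC the shares were 14.0% lower and 6.52% higher among 644 genes with a match and 12.0% and 5.73% among 8255 without.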
